A study of Mus musculus with 10 samples.

Results

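The Munc13 family of vesicle priming proteins and its relative Baiap3 made up 5 of the 22255 genes measured in hippocampal synaptoneurosomes, and 44 of the 102392 transcripts. Baiap3 was chosen by its difference between the 2 groups of libraries compared here, so its own difference is given as a description with no test. Unc13a, Unc13b, Unc13c and Unc13d were chosen as its relatives, and their differences keep their test. All 5 genes passed the filter on low counts. Of the 44 transcripts, 28 had a count in at least 1 library and 8 passed the filter.

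RNA came from synaptoneurosomes, a tissue fraction enriched in resealed synaptic endings, prepared from the hippocampus of C57Bl/6J mice labelled WT (wild type), in both groups. One group of 5 libraries came from mice given vehicle and the other group of 5 from mice given AM6545, an antagonist of the cannabinoid CB1 receptor with poor entry into the brain, by sub-chronic administration. The labels give no dose, sex, age or batch, and do not say whether a library held 1 animal or a pool, so n counts libraries and the p-values measure the spread between these libraries. Library totals ran from 18106112 to 25899794 estimated counts.

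Munc13 proteins work at the presynaptic membrane, where they help to open syntaxin and so prepare docked vesicles for calcium-triggered fusion. Unc13a is the main form at excitatory synapses of the forebrain, Unc13b makes a broadly expressed form and a brain form that differ at their N-terminal ends, and Unc13c is best known from granule cells of the cerebellum. Unc13d acts in the release of granules from blood cells, and Baiap3, named for its binding to the adhesion receptor Adgrb1, acts in the trafficking of dense-core vesicles.

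The genes lie on different chromosomes of GRCm38 (GENCODE M21). Baiap3 spans chr17:25242659-25256364 on the minus strand, Unc13a chr8:71624417-71671757 (minus), Unc13b chr4:43058953-43264871 (plus), Unc13c chr9:73479422-73968966 (minus) and Unc13d chr11:116062095-116077961 (minus). The longest stretches that pairs of genes share are shown because they set how far short reads can be told apart between members.
Unc13a and Unc13b: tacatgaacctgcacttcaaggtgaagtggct
Unc13a and Unc13c: accagcatcaccttcttccggatgaaggt
Baiap3 and Unc13a: gctggcggtgctgca
These runs are 32, 29 and 15 bases long. Of the 5238 words of 31 bases in the transcripts of Baiap3, 0 occur in another member, and 2 of the 12816 words of Unc13a do, both in Unc13b. The 3' ends of 2 members overlap a neighbour on the opposite strand. Baiap3 and Tsr3 overlap over 140 noncoding bases at chr17:25242659-25242798, and 110 of the words of Baiap3 (2.1%) lie there. Unc13a and Colgalt1 overlap over 495 noncoding bases at chr8:71624417-71624911, with 465 shared words. The use of strand in counting is not given in the sources used here, so reads from these stretches cannot be assigned to 1 of the 2 genes from the tables.

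The 250 bases upstream of the gene start (RefSeq, GRCm38.p6) are shown for Baiap3, which differed most between the groups, and for Unc13a, the most abundant member. Capitals mark GGGCGG on either strand, the core of an Sp1-type GC box.
Baiap3, chr17:25256365-25256614, minus strand: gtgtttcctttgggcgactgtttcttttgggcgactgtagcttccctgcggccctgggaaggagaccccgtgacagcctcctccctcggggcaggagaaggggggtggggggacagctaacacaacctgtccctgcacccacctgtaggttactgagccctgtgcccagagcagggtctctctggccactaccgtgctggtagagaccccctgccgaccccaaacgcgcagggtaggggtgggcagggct
Unc13a, chr8:71671758-71672007, minus strand: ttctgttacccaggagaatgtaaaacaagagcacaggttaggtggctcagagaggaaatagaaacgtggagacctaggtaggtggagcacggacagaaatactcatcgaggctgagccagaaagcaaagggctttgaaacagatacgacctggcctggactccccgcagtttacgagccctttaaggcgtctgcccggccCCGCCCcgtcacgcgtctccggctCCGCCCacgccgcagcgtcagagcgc
The Baiap3 window had a GC content of 64.4%, against a median of 52.4% over 32851 promoters, and held 0 matches to GGGCGG. Unc13a held 2, Unc13b 4 and Unc13c 1, and 32.7% of all promoters held at least 1. Neither TGACGTCA, the cAMP response element, nor TATAAA, the TATA box, matched on either strand in any of these 4 windows. Over all promoters 1.55% held the former and 12.4% the latter.

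Baiap3 was the member that lay apart between the groups. Its level in vehicle libraries 1 to 5 was 1.87, 2.37, 1.54, 2.19 and 2.57 CPM (counts relative to the library total, scaled by TMM), and in AM6545 libraries 1 to 5 it was 4.45, 4.39, 3.14, 3.59 and 4.66 CPM. The groups did not overlap on this scale. The lowest AM6545 library, replicate 3, lay above the highest vehicle library, replicate 5. Mean levels were 2.11 ± 0.408 CPM with vehicle and 4.05 ± 0.648 CPM with AM6545 (SD over 5 libraries). This is a 1.89-fold difference, or 0.92 on the log2 scale. Every AM6545 library lay above every vehicle library for 25 of the 14358 genes tested, or 0.174%, and below for 17, or 0.118%. Baiap3 belongs to the 25, and it was selected on this same contrast. Leaving out each library in turn moved its log2 difference between 0.83 and 1.004. This range comes from the libraries on which the gene was selected, so it is a description as well.

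Baiap3 is a low-count gene in this fraction. Its estimated counts were 38.6, 49.998, 29.7, 53.5 and 60.5 in vehicle libraries 1 to 5 and 114, 85.0, 57.0, 86.3 and 94.2 in AM6545 libraries 1 to 5. The coefficient of variation between libraries was 19.3% in vehicle and 16.0% in AM6545, of which counting alone would give 14.7% and 10.7%. In bulk RNA, more cells or endings that hold a transcript and more transcript in each cannot be told apart.

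Tsr3, a ribosome maturation factor whose 3' end overlaps that of Baiap3, had overlapping groups. It measured 30.5 ± 7.77 CPM with vehicle and 27.6 ± 2.01 CPM with AM6545, a log2 difference of -0.145 (edgeR's quasi-likelihood test, adjusted p = 0.9998). Baiap3 counts equalled 4.35% to 10.1% of Tsr3 counts with vehicle and 12.4% to 16.2% with AM6545, without overlap. This ratio carries the Baiap3 difference on which the gene was selected, so it is a description as well. Adgrb1, the receptor after which Baiap3 is named, measured 16.6 ± 2.95 and 17.9 ± 2.33 CPM (log2 difference 0.11, edgeR adjusted p = 0.9998). Cnr1, which encodes the receptor that AM6545 blocks, differed by 0.04 on the log2 scale (edgeR adjusted p = 0.9998).

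None of the 4 Munc13 genes passed the test. edgeR's quasi-likelihood test with Benjamini-Hochberg adjustment called 0 of 14358 genes (0.00%), with a smallest adjusted p of 0.9998. At an unadjusted p under 0.05 it listed 270 genes (1.88%), 164 higher and 106 lower with AM6545, and none of the 4 was among them. The DESeq2 Wald test also called 0 genes, and limma-voom called 1, Insc, which is not a member and was named after its values were seen. The median log2 difference of all genes tested was -0.01, and 0.24 was the 95th percentile.

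Unc13a measured 43.6, 50.5, 48.1, 53.6 and 48.8 CPM in vehicle libraries 1 to 5 and 51.9, 62.2, 53.4, 53.6 and 47.7 CPM in AM6545 libraries 1 to 5. The groups overlapped, and AM6545 library 2 was the highest of the 10. The means were 48.9 ± 3.68 and 53.8 ± 5.28 CPM (SD over 5 libraries). The fold was 1.099, with a 95% interval of 0.955 to 1.26 (edgeR adjusted p = 0.9998).

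Unc13b measured 8.59, 8.86, 10.99, 10.4 and 11.2 CPM in vehicle libraries and 11.2, 11.4, 8.82, 10.9 and 9.20 CPM in AM6545 libraries. Values on both sides of 10 CPM occurred in each group. The means were 9.997 ± 1.204 and 10.3 ± 1.22 CPM, a fold of 1.03 with a 95% interval of 0.861 to 1.24 (edgeR adjusted p = 0.9998).

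Unc13c measured 18.1, 11.3, 15.6, 13.1 and 20.9 CPM in vehicle libraries and 13.4, 14.01, 15.4, 19.9 and 13.2 CPM in AM6545 libraries. The highest and the lowest of the 10 values were both vehicle libraries. The means were 15.8 ± 3.83 and 15.2 ± 2.77 CPM, a fold of 0.963 with a 95% interval of 0.759 to 1.22 (edgeR adjusted p = 0.9998). Its coefficient of variation in the vehicle group was 24.3%, of which counting alone would give 5.39%. Of the markers of cerebellar granule cells, the cells for which Unc13c is best known, Gabra6, Barhl2 and Fat2 averaged under 1 CPM in both groups and Cbln3 averaged 0.422 CPM with vehicle and 1.08 CPM with AM6545. Gabra6 reached 3.65 CPM and Cbln3 3.38 CPM in an AM6545 library. The other genes of that list were measured at 48.2 and 45.6 CPM (Neurod1) and at 233 and 223 CPM (Etv1).

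Unc13d measured 1.96, 1.42, 1.70, 2.07 and 2.57 CPM in vehicle libraries and 2.21, 2.30, 2.92, 2.15 and 1.57 CPM in AM6545 libraries. The groups overlapped over most of their ranges, and AM6545 library 3 was the highest of the 10. The means were 1.94 ± 0.430 and 2.23 ± 0.484 CPM, a fold of 1.148 with a 95% interval of 0.832 to 1.58 (edgeR adjusted p = 0.9998). With 30.02 to 60.4 estimated counts per library, this interval is the widest of the 4 on the log scale. The upper bounds of Unc13a, Unc13b and Unc13c lie at 1.26-fold or below, whereas that of Unc13d reaches 1.58-fold.

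**Figure D1:**
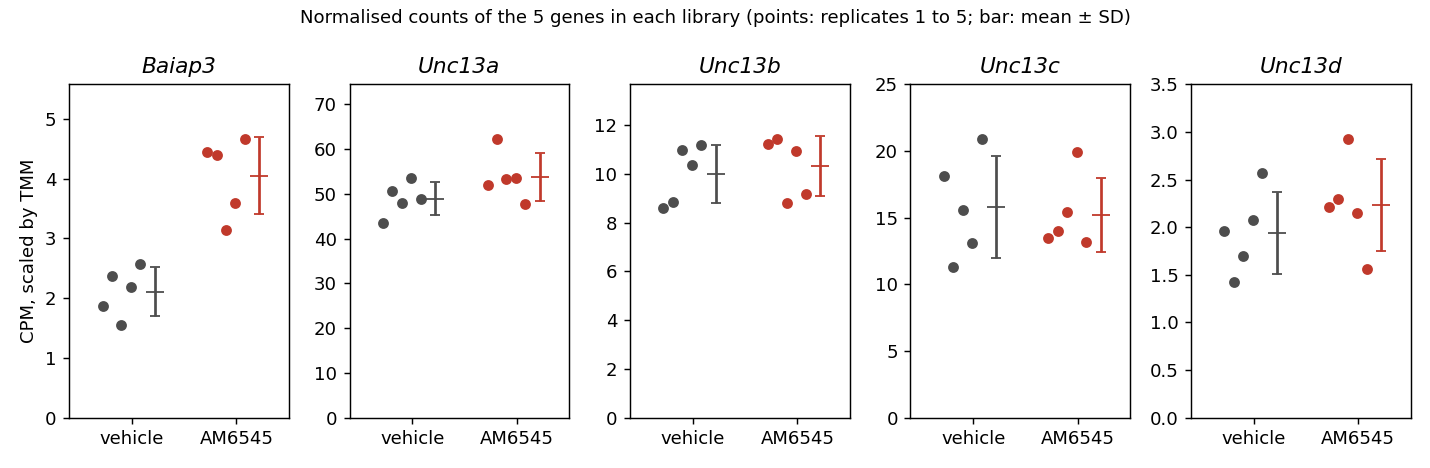
TMM-scaled CPM (y axes, each from 0) of the 5 genes in vehicle (grey) and AM6545 (red) libraries, with 1 point per library in replicate order and a bar for the mean ± SD of 5 libraries. The Baiap3 groups do not overlap, with 1.54 to 2.57 CPM with vehicle and 3.14 to 4.66 CPM with AM6545, and those of the Unc13 genes do.

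Levels of different genes were compared per transcript length, as counts per kilobase, scaled to the same total in every library without TMM. Unc13a was the highest, at 10.7 ± 1.29 (SD over 10 libraries), and lay above every value of the next gene. Unc13b at 3.52 ± 0.450, Unc13c at 3.40 ± 0.669 and Unc13d at 3.01 ± 0.648 followed with overlapping ranges. Baiap3 came last at 2.001 ± 0.803, and in 9 of 10 libraries it lay below Unc13d. Its groups overlapped on this scale, unlike in CPM, at 0.623 to 2.28 with vehicle and 1.86 to 3.30 with AM6545. As a percent of Unc13a per length, Baiap3 ran from 6.52% to 18.9% with vehicle and from 17.2% to 29.6% with AM6545, also with overlap. Unc13b exceeded Unc13c in 6 of 10 libraries and Unc13c exceeded Unc13d in 7 of 10, so the order of these neighbours is within their spread. Unc13a stood at the 56.0th percentile of all genes on this scale and Baiap3 at the 35.0th.

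The order below Unc13a depended on the length used. With gene counts divided by the longest transcript of each gene, the order was Unc13a at 12.2, Unc13c at 4.27, Unc13b at 1.68, Baiap3 at 1.63 and Unc13d at 1.25 on the same scale. Unc13d thus moved from above Baiap3 to below it, since most of its counts sit on a transcript of 991 bases that is described below with its sequence. As a share of the summed level of the family per length, Baiap3 took 6.84% ± 2.49 in vehicle and 10.5% ± 2.42 in AM6545 libraries, and Unc13a took 47.9% ± 5.03 and 46.7% ± 2.59.

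**Figure D2:**
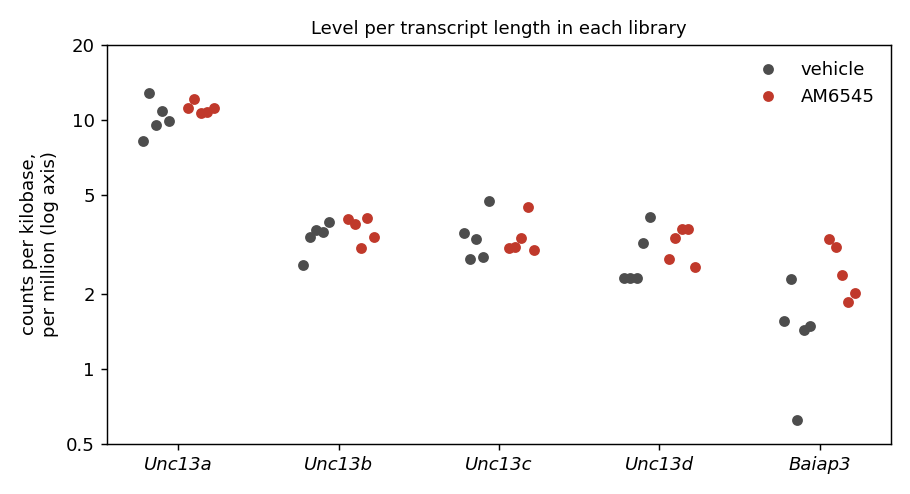
Level per transcript length (log axis, counts per kilobase, scaled to the same total in every library without TMM) of the 5 genes, with 1 point per vehicle (grey) or AM6545 (red) library. Unc13a, at 8.23 to 12.8, lies above every value of the other genes, and the ranges of Unc13b, Unc13c and Unc13d overlap.

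Single transcripts carried nearly all counts of Unc13a and Unc13c. Unc13a-201, a coding transcript of 1712 codons, held 98.5% ± 0.480 of the gene's counts in vehicle and 98.8% ± 0.594 in AM6545 libraries. Unc13c-202, with 2210 codons, held all counts of its gene, and Unc13c-201, which has the same number of codons and begins at a later exon, was at 0 in the 10 libraries. Across the whole transcript table edgeR called 1 of 31848 transcripts (0.00314%), Srrm1-202, which is not a member and was named after its values were seen. The 6 Unc13 transcripts tested had log2 differences from -0.18 (Unc13b-214) to 0.14 (Unc13a-201), each with an edgeR adjusted p of 0.9999.

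Several coding forms of Unc13b carried counts. Unc13b-201, of 1590 codons, and Unc13b-216, of 1982 codons, start from different exons and join the same downstream exon at chr4:43230118. Their joins, with the shared exon in capitals, show where the forms part.
Unc13b-201: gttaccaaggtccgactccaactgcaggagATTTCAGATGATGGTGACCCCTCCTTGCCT
Unc13b-216: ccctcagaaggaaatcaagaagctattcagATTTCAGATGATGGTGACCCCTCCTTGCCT
Unc13b-201 held 67.2% ± 8.74 of the gene's counts in vehicle and 70.4% ± 5.20 in AM6545 libraries (exact permutation p = 0.492, two-sided). Unc13b-216 held 8.62%, 7.93%, 8.21%, 20.4% and 14.8% in vehicle libraries and 21.4%, 6.86%, 6.13%, 10.96% and 12.5% in AM6545 libraries (exact permutation p = 0.905). Its 2 highest shares came from vehicle library 4 and AM6545 library 1, which were also the 2 deepest libraries, and whether depth plays a part was not tested. Of the 31-base words of Unc13b-216, 2761 of 6544 occur in no other transcript of the gene, so its counts rest on sequence of its own. Unc13b-201 has 0 such words, and its counts depend on how the estimation shared reads with forms such as Unc13b-215.

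Unc13b-214, a noncoding transcript that keeps 2576 intron bases, held 14.1% ± 1.82 of the counts in vehicle and 12.3% ± 2.82 in AM6545 libraries (exact permutation p = 0.278). The start of its kept intron is in capitals.
Unc13b-214: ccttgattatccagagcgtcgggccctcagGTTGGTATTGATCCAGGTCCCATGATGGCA
It was present in each of the 10 libraries, at 0.731 to 1.73 CPM. Coding transcripts together held 85.7% of the counts of Unc13b on average over the 10 libraries, against 99.4% for Unc13a and 100% for Unc13c.

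Most counts of Unc13d were assigned to a transcript that makes no protein. Unc13d-205, of 991 bases, reads through the end of an exon at chr11:116075704 and keeps 308 bases of the intron, whose start is in capitals.
Unc13d-205: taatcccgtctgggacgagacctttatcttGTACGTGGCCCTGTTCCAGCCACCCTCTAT
It held 57.9%, 66.7%, 63.0%, 74.2% and 71.9% of the gene's counts in vehicle libraries and 49.1%, 66.3%, 52.6%, 80.6% and 74.7% in AM6545 libraries (exact permutation p = 0.770). Coding transcripts held 33.7% on average, from 19.4% to 47.4%. Of the 307 words of 31 bases that only Unc13d-205 has within the gene, 169 also occur in transcripts of 899 other genes, Ccz1 the most frequent with 118. Reads from those words can come from other genes, and the share that did was not tested.

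The coding part of Unc13d was split in a way that changed from library to library. Unc13d-201 was at 0 in vehicle library 2 and AM6545 libraries 2 and 3, Unc13d-203 was present in vehicle library 2 and AM6545 library 3 alone, and Unc13d-202 in AM6545 libraries 1 and 2 alone. Unc13d-201 and Unc13d-203 have 0 words of their own, and Unc13d-202 has 89. Over the 8 Unc13 shares tested, 0 passed the exact permutation test after Benjamini-Hochberg adjustment (0 also had an unadjusted p under 0.05; smallest adjusted value 0.787). The smallest p that 5 against 5 libraries can give is 0.00794, so 1 share alone could not go below an adjusted p of 0.0635, nor 1 of the 12 marker lists below 0.0952.

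Baiap3 counts were divided between the coding Baiap3-202, of 1150 codons, and the noncoding Baiap3-203. The beginning of Baiap3-203 is shown with the same stretch of Baiap3-202, and capitals mark the 6 bases that come before chr17:25244027 in each, from the kept intron in Baiap3-203 and from the preceding exon in Baiap3-202.
Baiap3-203: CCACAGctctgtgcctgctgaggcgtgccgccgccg
Baiap3-202: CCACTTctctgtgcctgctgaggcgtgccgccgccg
Baiap3-202 measured 0.950, 1.40, 1.55, 1.70 and 2.21 CPM in vehicle libraries and 3.01, 3.23, 2.13, 3.30 and 4.65 CPM in AM6545 libraries. AM6545 library 3 lay within the vehicle range and the other 4 lay above it. Baiap3-203 measured 0.557 ± 0.418 CPM with vehicle and 0.750 ± 0.560 CPM with AM6545, with 0 counts in vehicle library 3 and AM6545 library 5. The groups were fully separated, with AM6545 above, for 96 of the 31848 transcripts (0.301%), and no Baiap3 transcript was among them. Only 6 words of Baiap3-203 and 83 of Baiap3-202 are found in no other transcript of the gene, so the gene total rests on firmer ground than this split. Of the other 7 transcripts, Baiap3-206 had 6.11 counts in AM6545 library 1 and 6 had none.

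**Figure D3:**
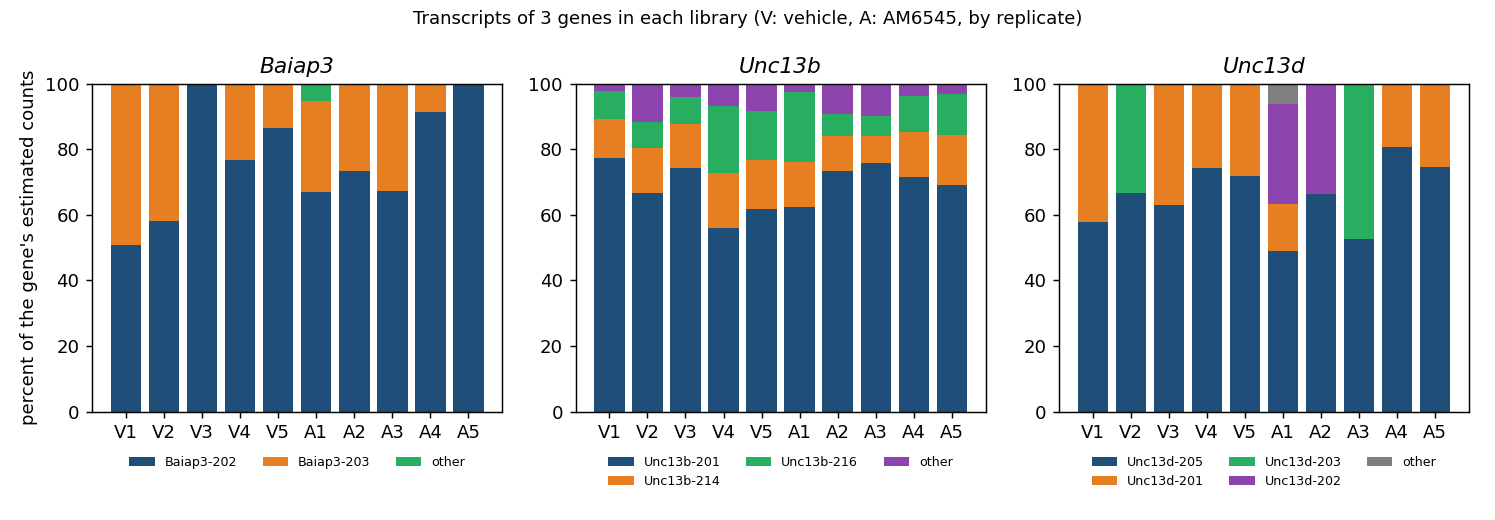
Percent of a gene's estimated counts (y axis) assigned to each transcript in vehicle libraries 1 to 5 (V) and AM6545 libraries 1 to 5 (A) for Baiap3, Unc13b and Unc13d. Unc13b-201 holds 56.1% to 77.4% of Unc13b in each library, whereas the coding transcripts of Unc13d replace one another between libraries.

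Partners of the family were read from 4 lists. Of 18 SNARE and priming partners, 0 passed the edgeR test in either direction and 0 had an unadjusted p under 0.05. Their median log2 difference was 0.00, and 9 of 18 were above 0. The SNARE proteins that Munc13 acts on showed small differences, with log2 values of 0.00 for Stx1a, -0.06 for Snap25 and -0.01 for Vamp2. Cadps and Cadps2, priming factors of dense-core vesicles that share the MUN domain with the family, differed by 0.13 and 0.09.

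Of 18 active zone partners, 0 passed the edgeR test and 12 were above 0, with a median log2 difference of 0.03. At an unadjusted p under 0.05, 1 was higher and 1 lower. Ppfia3, a liprin scaffold, measured 35.1 ± 4.32 and 41.6 ± 3.39 CPM (log2 difference 0.24, edgeR adjusted p = 0.9998). Rab3c, a vesicle GTPase, measured 255 ± 15.4 and 223 ± 15.9 CPM (log2 difference -0.19, edgeR adjusted p = 0.9998). Rims1 and Rims2, which bind Munc13 at the release site, differed by 0.12 and 0.03 on the log2 scale.

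All 16 partners of dense-core vesicle and retrograde trafficking, the route in which Baiap3 acts, were tested. Their log2 differences lay between -0.11 and 0.11 with a median of -0.01, 7 were above 0, and 0 passed the edgeR test or had an unadjusted p under 0.05. Of the 8 partners of Unc13d in granule exocytosis, 6 were tested, 0 passed and 3 were above 0, with a median log2 difference of -0.02. One of the 6, Rab27b, which recruits granules to the membrane, had an unadjusted p under 0.05 and was lower. It measured 59.2 ± 2.72 and 50.6 ± 4.39 CPM (log2 difference -0.225, edgeR adjusted p = 0.9998).

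**Figure D4:**
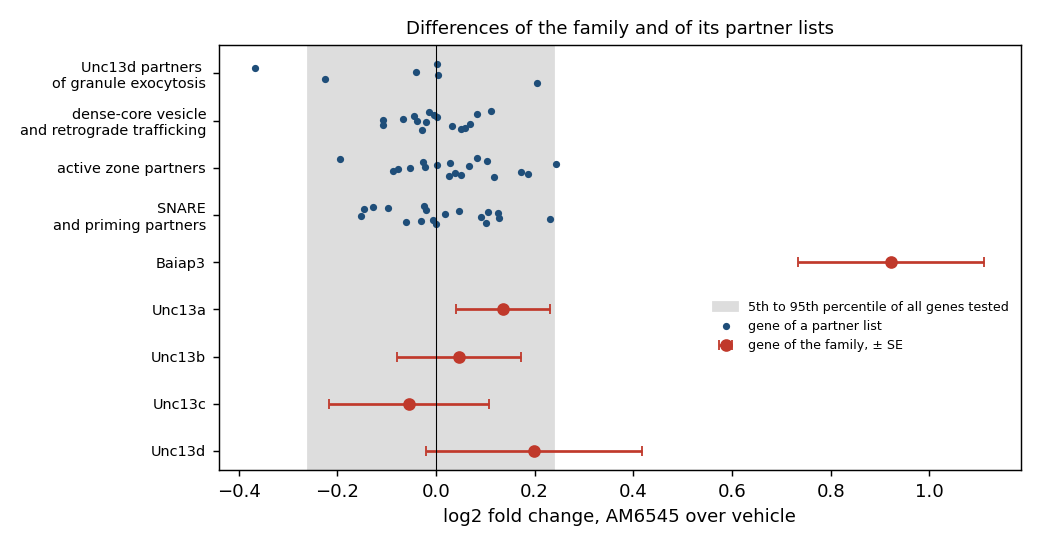
Log2 fold change of AM6545 over vehicle libraries (x axis) for the 5 genes (red, ± SE) and for the tested genes of 4 partner lists (blue), with the range from the 5th to the 95th percentile of all 14358 genes in grey. Baiap3, selected on this contrast, is drawn at 0.92 as a description, and its bar does not allow for the selection. The 4 Unc13 genes lie from -0.055 to 0.20.

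No correlation between members among libraries of one group passed the test. Over 10 libraries, with log2 CPM centred within each group, the largest of 10 correlations was that of Unc13c with Unc13d (Pearson r = 0.563, permutation p = 0.0905, adjusted p = 0.684; Spearman rho = 0.467, permutation p = 0.179, adjusted p = 0.820). Without the 2 libraries farthest from the median of the first gene of a pair, this r was 0.521. The same omission moved Unc13b with Unc13d from 0.238 to 0.824 and Unc13b with Unc13c from 0.260 to 0.611, so those values rest on which libraries are included. For Unc13c with Unc13d, r was 0.788 among vehicle libraries alone and 0.271 among AM6545 libraries. Baiap3 and Unc13a gave r = 0.138 (permutation p = 0.706, adjusted p = 0.706).

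Markers of other cells were measured beside Baiap3, because a fraction from tissue carries RNA of neighbouring cells. For each of the 12 marker lists the groups' summed levels overlapped, and the adjusted p of an exact permutation test was 0.926 or more. A sum follows the most abundant genes of its list and says little about the scarcer ones. Aldh1l1 (astrocyte, log2 difference 0.273), Cbln3 (cerebellar granule cell, 1.402) and Trh (diencephalon, 3.198) had an unadjusted edgeR p under 0.05. So had 1.88% of all genes tested, and no marker passed after adjustment. In the list for hypothalamus, septum and other diencephalon, Trpc4 averaged 42.4 CPM and Slc17a6 19.9 CPM with vehicle. The list for hypothalamus, septum and other diencephalon had the smallest unadjusted p, 0.111, at 78.5 to 93.8 CPM with vehicle and 88.7 to 100.8 CPM with AM6545. Of its 18 genes 10 were tested, 5 of them above 0, and Sim1 was at 0 while Hcrt, Pmch, Avp, Oxt, Agrp, Ghrh, Nkx2-1 and Dgkk averaged under 1 CPM. Trh, one of its neuropeptide genes, was at 0.103 to 1.04 CPM in 4 AM6545 libraries and at 15.2 CPM in AM6545 library 1, and Zic1, a septal transcription factor gene, reached 9.44 CPM in AM6545 library 5. Both were named after their values were seen, and their log2 differences, 3.198 and 0.879, were the largest of the list. The other tested genes lay at 0.16 (Avp), 0.153 (Tcf7l2), 0.032 (Trpc4), -0.004 (Gpr151), -0.005 (Slc17a6), -0.012 (Tac2), -0.171 (Hdc) and -0.172 (Pomc). AM6545 libraries 1 and 5 had the highest Baiap3 levels of their group, 4.45 and 4.66 CPM. Each was high in only 1 of Trh and Zic1. Zic1 was at 1.09 CPM in AM6545 library 1, and Trh at 1.04 CPM in AM6545 library 5. In AM6545 library 2, Baiap3 was at 4.39 CPM, Trh at 0.103 CPM and Zic1 at 4.03 CPM. GABA neuron markers summed to 905 to 1296 CPM with vehicle and 966 to 1229 CPM with AM6545, and monoamine and acetylcholine neuron markers to 18.5 to 24.8 and 21.5 to 25.3 CPM. The part of these cells in the Baiap3 difference was not tested.

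The remaining lists gave the following summed levels, vehicle first. Hippocampal excitatory neuron markers ran from 2283 to 2899 CPM and from 2399 to 2786 CPM. Astrocyte markers ran from 4088 to 4693 and 3582 to 5134 CPM, and oligodendrocyte markers from 14460 to 20977 and 12272 to 28275 CPM. Microglia markers ran from 799 to 1101 and 784 to 1090 CPM, and those of blood cells, in which Unc13d is best known, from 289 to 901 and 334 to 1339 CPM. AM6545 library 3, the highest in Unc13d at 2.92 CPM, had the highest blood marker sum, 1339 CPM. The next sums, 901 and 795 CPM, were those of vehicle libraries 1 and 2, with Unc13d at 1.96 and 1.42 CPM. The part of blood RNA was not tested. Choroid plexus markers ran from 70.7 to 5136 and 675 to 4078 CPM. Cerebellar granule cell markers summed to 262 to 296 and 246 to 285 CPM, of which Etv1 alone averaged 233 and 223 CPM. Oligodendrocyte precursor markers summed to 175 to 214 and 157 to 238 CPM, and endothelium and pericyte markers to 75.0 to 155 and 75.8 to 135 CPM.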

How the data were processed

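Total RNA of hippocampal synaptoneurosomes was converted into libraries with SMARTer ultra-low-input chemistry (labels' protocols). The authors deposited estimated counts per gene and per transcript for 10 libraries. Salmon 1.5.2 and mm10 are named in the submitters' processing notes. The annotation release and the use of strand are not given in the sources used here. Group and replicate number came from each library's title.

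Estimated counts were rounded to whole numbers and fitted in edgeR 4.0.16 (R 4.3.3) with TMM scaling, filterByExpr (minimum count 10, minimum total 15), robust quasi-likelihood dispersions and Benjamini-Hochberg adjustment over all features, at a threshold of 0.05. CPM values are TMM-scaled. Fold intervals use the standard error and total degrees of freedom of the edgeR fit. Levels per length divide each transcript's counts by its length, are scaled to 1 total in every library and summed per gene. Transcript shares were computed from unrounded estimates and tested, like marker sums, with two-sided exact permutation tests over 252 arrangements. Correlations used 100000 permutations of log2(CPM + 0.5). Python 3.11.15, numpy 2.4.6, pandas 2.3.3 and scipy 1.17.1 were used. The fits were tested on simulated data.

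Symbols were found for 22155 of 22255 genes, and names and lengths in GENCODE M21 for 101527 of 102392 transcripts. Only 11 gene identifiers carry the same version as in that release, so the models behind the counts may differ from the coordinates and sequences shown. The promoter table held 4 of the 5 genes. Intervals cover the spread between libraries, and the error of dividing reads among transcripts is not included.

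The members and lists were chosen with earlier results of these data known. Named are the 5 members, their transcripts, Tsr3, Adgrb1, a few partners, partners with an unadjusted p under 0.05, and the 3 genes most correlated with each member. Any other gene was named after its values were seen. Single values of 2 partners that this rule names are not reported here. Alternatives were DESeq2 1.42.0 size factors, total counts, the DESeq2 Wald test, limma-voom (limma 3.58.1) with quality weights, other filters, non-robust dispersions, a block for the replicate number, other lengths, other share and marker measures, and leaving out each library.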

Additional observations from a re-analysis of the deposited data

Results flagged for a closer look

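In groups of 5 libraries, a value was listed where its gap to the nearest other value, divided by the group's range, was above Dixon's 95% critical value of 0.71. Of 54 groups, 4 held such a value. Chance gives about 2.7 for normally distributed values, which shares with many zeros are not. Where 4 values are 0 and 1 is above 0, as for Unc13d-203 below, the ratio is 1 whatever the value. The share of Unc13d-203 was 33.3% in vehicle library 2 and 0% in the other 4 vehicle libraries, and it was 47.4% in AM6545 library 3 and 0% in the other 4 AM6545 libraries. Unc13d-203 has no 31-base word of its own within the gene. Blood cell markers summed to 1339 CPM in AM6545 library 3 and to 334 to 471 CPM in the other AM6545 libraries. Oligodendrocyte markers summed to 20977 CPM in vehicle library 3 and to 14460 to 15735 CPM in the other vehicle libraries.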

How the results depend on the processing

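None of the 4 Unc13 genes or their transcripts was called under any alternative. The number of genes called was 1 with limma-voom and 0 to 1 when a library was left out, with 1 without vehicle library 3 (Gm28048) and 1 without AM6545 library 3 (Insc). The number of transcripts called was 11 with the DESeq2 Wald test, 0 with limma-voom, 2 with no filter, 0 with at least 10 counts in every library, 2 without robust dispersions and 0 to 4 when a library was left out, the 4 without AM6545 library 3. The log2 difference of Unc13b turned from 0.05 to -0.0012 with limma-voom and to -0.0016 without vehicle library 1. That of Unc13c turned from -0.055 to 0.0676 without vehicle library 5. Leaving out a library gave -0.0016 to 0.0984 for Unc13b, -0.1726 to 0.0676 for Unc13c, 0.08 to 0.18 for Unc13a and 0.09 to 0.32 for Unc13d. The causes were not tested. In the order by length, 2 neighbouring pairs were separated with the longest transcript and 1 with lengths reduced by 200 bases, where Unc13d at 3.09 stood above Unc13b at 3.08. Deviations of libraries with the same replicate number correlated in both directions (r from -0.22 to 0.43, 5 of 10 libraries closest to their own number). The labels do not describe the numbers as pairs, and they were not read as such. Whether libraries of the same number share a batch was not tested. With the replicate number as a block, 0 genes and 0 transcripts were called. The log2 differences were then 0.13 for Unc13a, 0.05 for Unc13b, -0.04 for Unc13c and 0.20 for Unc13d. That of Baiap3, a description, was 0.93. Depth limits Baiap3 and Unc13d, with 29.7 to 114 and 30.02 to 60.4 counts per library. The coefficient of variation of Unc13d was 22.1% with vehicle and 21.7% with AM6545, where counting alone would give 15.3% and 14.5%, so the spread between libraries limits it as well.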

Other observations

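For each member, the genes whose log2 CPM followed it most closely over the 10 libraries, after centring within each group, are given as a description, as the highest of the correlations with all 14358 tested genes. All libraries share their depth and composition with both genes of a pair, and no test was made. Baiap3 was followed most closely by Ncoa7 (r = 0.950, rho = 0.879), 2610002M06Rik (r = 0.947, rho = 0.758) and Asb13 (r = 0.947, rho = 0.939). The log2 differences of these 3 genes between the groups were 0.00, -0.03 and -0.06, beside 0.92 for Baiap3. Unc13a was followed by Pogz (r = 0.941, rho = 0.964), Pcdhb18 (r = 0.924) and Dkk2 (r = 0.907). Unc13b was followed by Olfr338 (r = 0.959), Bclaf3 (r = 0.958) and Galnt3 (r = 0.929). Unc13c was followed by Olfr624 (r = 0.945), Lefty2 (r = 0.919) and Hsd3b2 (r = 0.880). Unc13d was followed by Wdr31 (r = 0.984, rho = 0.988), Luc7l2 (r = 0.914) and Zfp866 (r = 0.907). No gene appeared in the list of more than 1 member.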
